A study of Homo sapiens with 6 samples.

Results

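Collagens, laminins and integrins are the structural chains of the extracellular matrix and the receptors that hold cells to it. The genes described here are all those in the table named as a collagen chain (43), a laminin chain (12) or an integrin (31), with FN1, LOX and SPARC added by name, 89 of 23368 genes in all. They were selected by symbol, and this set of families was taken up with earlier results of these data known. Of the 31 integrin names, 26 are receptor chains; ITGB1BP1, ITGB1BP2, ITGB1BP3, ITGB3BP and ITGBL1 match the naming pattern but encode no receptor chain, and they were kept apart. The cells were HepG2, an established line from a human liver cancer, grown in EMEM medium with serum. Both groups carried a stably integrated lentiviral pLKO short hairpin. In shCHROME (3 libraries, a, b and c) the hairpin targets the variants of the long non-coding RNA CHROME, and in EV (3 libraries, a, b and c) it is non-targeting. The virus of both groups was packaged in HEK293T cells, an embryonic kidney line, with psPAX2 and pMD2.G. Only 1 hairpin against CHROME is named in the sample titles, so its effects on CHROME and on other transcripts cannot be told apart, and CHROME itself is not analysed here. The comparison asks which genes differ in expression after knock-down of CHROME.

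Collagens are trimers of chains wound into a triple helix: fibrillar types form the fibres of connective tissue, network types form sheets, and fibril-associated types coat the surface of fibres. Laminins are cross-shaped trimers of 1 alpha, 1 beta and 1 gamma chain and are the main adhesive proteins of basement membranes. Integrins are pairs of an alpha and a beta chain, and the pair decides whether a cell binds laminin, collagen or the RGD motif of fibronectin and vitronectin. In liver, hepatocytes face the space of Disse, which holds fibronectin and scattered collagen without a continuous basement membrane, and most fibrillar collagen is made by stellate cells and fibroblasts.

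Total RNA was sequenced in pairs on a HiSeq after TruSeq library preparation. Reads assigned to genes came to 29188213 to 35429420 in the EV libraries and 29477352 to 33911426 in the shCHROME libraries. Values are normalized counts, that is reads divided by a size factor of the library, and 1 read was worth 0.914083 to 1.114941 normalized counts. The groups separated on the first principal component of all genes tested (39.1% of the variance), and on it no library stood apart from its group. Other components were not examined. No source says that the libraries of a group come from separate cultures. Each p-value is set against the spread among the 3 libraries per group, pooled over both groups and moderated toward a trend over all genes tested. That spread may be technical. Means are given ± SD over those 3 libraries. The 10 hepatocyte genes checked were all detected, with a summed level of 1433650 to 1553659 in EV and 1152660 to 1349735 in shCHROME, and 6 of them were lower (ALB, APOA1, AFP, SERPINA1, TTR and TF). Of 10 fibroblast, stellate and smooth muscle markers, 3 passed the filter on low counts, PDGFRB was lower and DCN was listed at 0. Their sum, mostly TAGLN, was 3509 to 3775 in EV and 3332 to 3698 in shCHROME. The 8 endothelial markers, mostly VWF, summed to 1077 to 1107 and 939.6 to 1019 with none called and TEK at 0. The 8 blood markers, mostly LYZ, summed to 5200 to 5288 and 5719 to 7208 with LYZ higher and CD3E and HBB at 0. The 8 kidney packaging cell markers, mostly CDH2, summed to 3666 to 3898 and 3274 to 3465 with CDH2 lower and NEFL and NEFM at 0. The part of these markers in the results was not tested. In bulk RNA, fewer cells of a type and less RNA per cell cannot be told apart.

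Of the 89 genes, 47 had enough reads to be tested. LAMA3, LAMB3 and LOX rose in shCHROME, and COL9A3, COL27A1, COL8A2, LAMB2, FN1, ITGA6 and ITGAV fell. The other 37 tested genes did not pass the test, limma with an intensity trend on log2(normalized count + 1), called at an adjusted p under 0.05 over all genes tested. The called genes changed by 1.17-fold to 1.72-fold. On GRCh38, the genes that rose lie at chr18:23689443-23956222 (LAMA3, plus strand), chr1:209614870-209652466 (LAMB3, minus) and chr5:122063195-122078360 (LOX, minus). Of those that fell, COL9A3 lies at chr20:62816244-62841159 (plus strand), COL27A1 at chr9:114155560-114312511 (plus), COL8A2 at chr1:36095236-36125220 (minus) and LAMB2 at chr3:49121114-49133118 (minus). FN1 (chr2:215360440-215436172, minus), ITGA6 (chr2:172427354-172506282, plus) and ITGAV (chr2:186590065-186680901, plus) share a chromosome. Over all 14598 genes tested, 10.5% were called, 3.64% higher and 6.87% lower, against 21.3% of the tested members, 6.38% higher and 14.9% lower. That split of all genes depends on scaling: 65.3% of calls were lower here and 42.9% with library totals as scaling. Under library totals each of the 10 members kept its direction, but FN1 lost its call (limma adjusted p = 0.0964). The groups did not overlap for 13 of the 47 tested members, 27.7%, and for 28% of all genes tested. The median log2 fold change (shCHROME minus EV) of the tested members was 0.007, beside 0.009 for all genes, with 24 members above 0 and 23 below. Whether members were called more often than other genes was not tested.

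**Figure D1:**
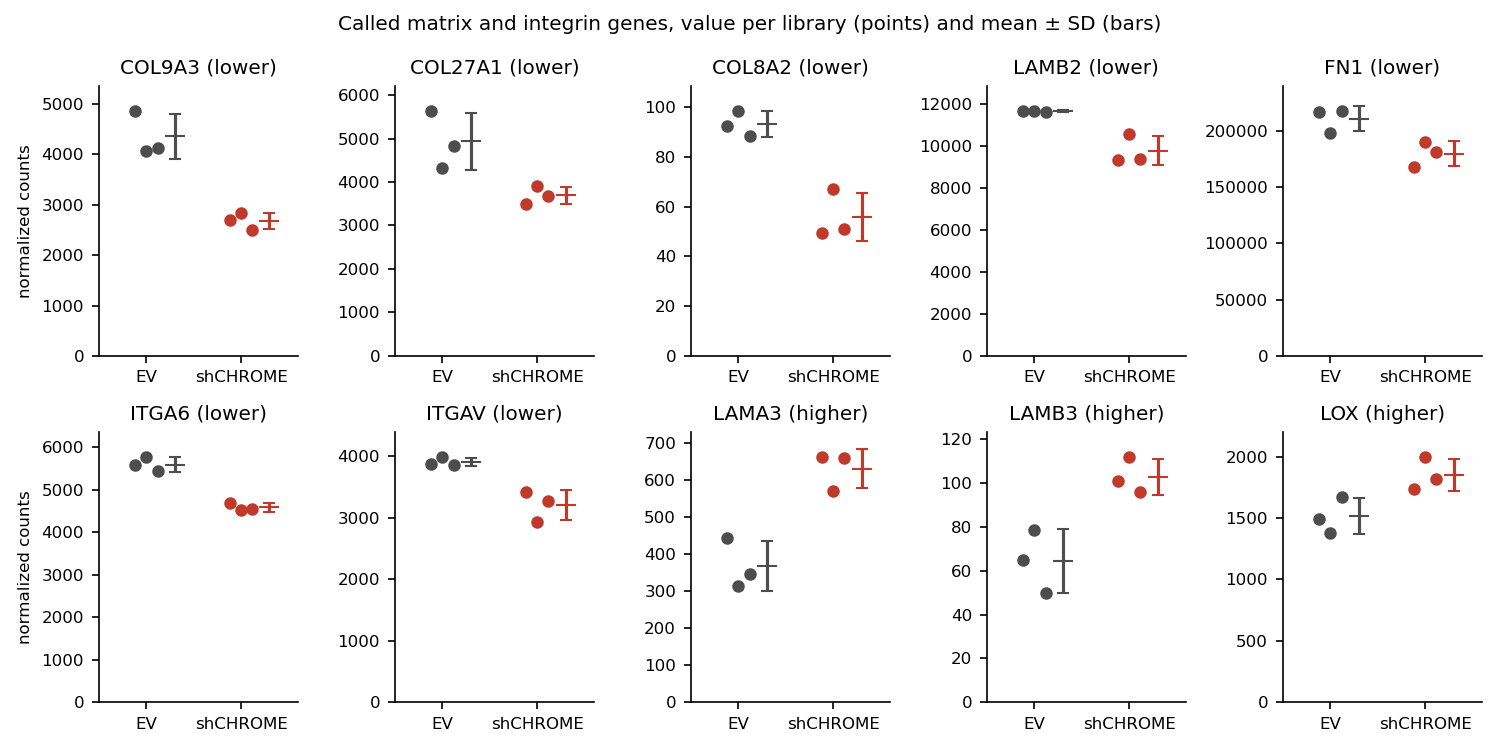
Normalized counts of the 10 called genes in each library (points) with the mean and SD of each group (bars, n = 3), on axes that start at 0. In each of the 10 panels the EV and shCHROME points do not overlap.

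**Figure D2:**
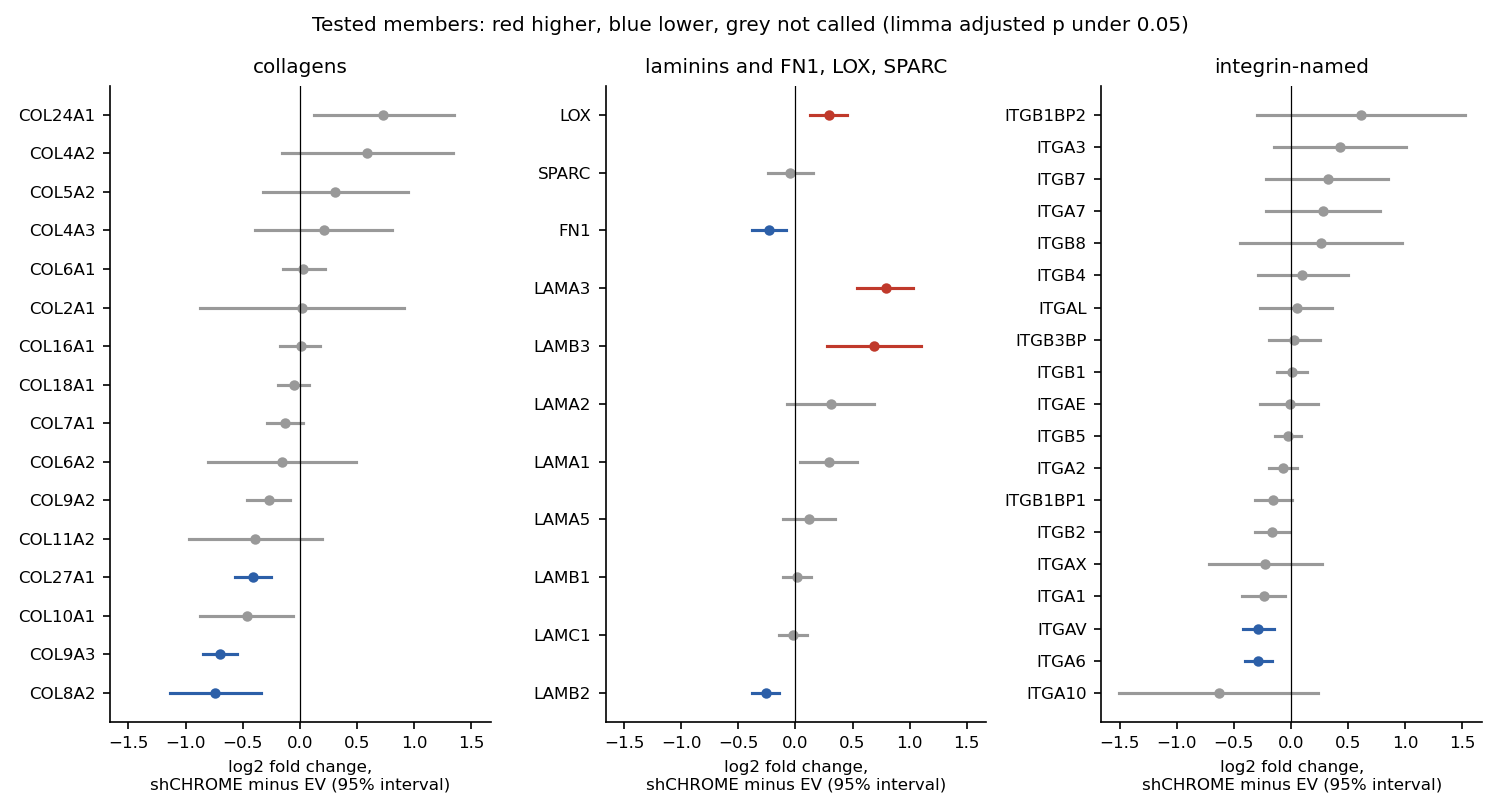
Log2 fold change (shCHROME minus EV) with its 95% interval from limma for 46 of the 47 tested genes, grouped by family; red marks higher, blue lower and grey not called. The intervals of LAMA3, LAMB3 and LOX lie above 0, and those of the 7 lower genes lie below it.

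Among collagens, 3 chains fell and none rose, of 16 tested out of 43. The smallest adjusted p was that of COL9A3, a chain of collagen IX, which coats the surface of cartilage fibrils. Its normalized counts were 4871, 4073 and 4135 in EV a, b and c and 2693, 2836 and 2506 in shCHROME a, b and c. Each shCHROME library lay well below the lowest EV library. Its mean fell from 4360 ± 444 in EV to 2678 ± 165 in shCHROME, which on the log2 scale is -0.70 ± 0.072 (SE), 1.62-fold lower (limma adjusted p = 5.1e-06). COL9A3 overlaps TCFL5 on the other strand, and without stated strand counting, reads on the shared exon bases cannot be told apart. TCFL5 had a mean of 669 normalized counts in EV and 697 in shCHROME, and its part was not tested.

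No other chain of collagen IX was called. COL9A2 had 1357, 1431 and 1551 normalized counts in EV and 1289, 1291 and 1026 in shCHROME, so its groups did not overlap, and its log2 fold change was -0.27 (95% interval -0.46 to -0.09; limma adjusted p = 0.054). It was called with DESeq2 (adjusted p = 0.0426) and without shCHROME a (0.0223) or without shCHROME b (0.0419). COL9A1, the third chain of the trimer, was listed at 0 in each library. Per kilobase of exon, COL9A3 stood at 901 normalized counts in EV and 553 in shCHROME, and COL9A2 at 343 and 285. The other fibril-associated chain named by the rule, COL16A1, had 1718 ± 225 and 1719 ± 89.8 normalized counts (log2 fold change 0.01).

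COL27A1, a fibrillar chain found in developing cartilage, had 5644, 4330 and 4828 normalized counts in EV and 3501, 3901 and 3673 in shCHROME. The highest shCHROME library was below the lowest EV library. Its mean fell from 4934 ± 663 in EV to 3691 ± 201 in shCHROME, which on the log2 scale is -0.41 ± 0.078 (SE), with a limma adjusted p of 0.00214. COL27A1 held nearly all fibrillar collagen reads: the summed normalized counts of the 11 fibrillar chains were 5079 ± 652 in EV and 3861 ± 266 in shCHROME. COL11A2 and COL5A2, minor chains that help to start fibrils, had log2 fold changes of -0.39 (-0.97 to 0.19) and 0.31 (-0.32 to 0.95) and did not pass the test. The chains of the most abundant collagens of connective tissue were almost without reads, with 1 read for COL1A1, 4 for COL1A2 and 3 for COL3A1 over 6 libraries.

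COL8A2, a short network-forming chain of the layer beneath the corneal endothelium and of vessel walls, was weakly expressed, at 92.54, 98.72 and 88.62 normalized counts in EV and 49.5, 67.2 and 51.02 in shCHROME. Its groups did not overlap, and shCHROME b was the highest of its group. Its mean fell from 93.29 ± 5.09 in EV to 55.91 ± 9.81 in shCHROME, which on the log2 scale is -0.74 ± 0.191 (SE), with a limma adjusted p of 0.0176. The call was lost without EV a (adjusted p = 0.0528), without EV b (0.0728) and without shCHROME c (0.0729), and it held under the other 13 alternatives. COL10A1, the network collagen of growth-plate cartilage, had 88.58 ± 7.3 in EV and 64.65 ± 11.5 in shCHROME without overlap of the groups (log2 fold change -0.46, limma adjusted p = 0.144).

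None of the tested collagens of types IV, VI, VII and XVIII passed the test. COL18A1, whose C-terminal fragment is endostatin, was the collagen with the highest sum of reads and had 7377 ± 331 normalized counts in EV and 7124 ± 605 in shCHROME, with a log2 fold change of -0.05 (95% interval -0.19 to 0.08). COL7A1, the anchoring fibril collagen, had 2079 ± 89.9 in EV and 1906 ± 203 in shCHROME (-0.13, -0.29 to 0.03). COL6A1, a chain of the beaded filaments of collagen VI, differed by 0.03 (-0.15 to 0.22), and COL6A2 by -0.16 (-0.80 to 0.49). The 6 chains of collagen IV, the main network of basement membranes, summed to only 64.64 ± 7.71 normalized counts in EV and 91.29 ± 14.1 in shCHROME. Its 2 tested chains, COL4A2 (0.59, -0.16 to 1.34) and COL4A3 (0.21, -0.39 to 0.81), did not pass the test. Taking all 43 collagen chains, the summed level was 25044, 22194 and 22340 normalized counts in EV. In shCHROME it was 18880, 21126 and 18822, each below each EV library. This sum includes COL9A3, with means of 4360 in EV and 2678 in shCHROME, and COL27A1, with 4934 and 3691. Both were called lower, while of the 16 tested collagens 7 had a log2 fold change above 0 and 9 below.

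The called laminin chains moved in opposite directions: LAMA3 and LAMB3 rose and LAMB2 fell, of 9 tested out of 12. Of the 9 tested, 7 had a log2 fold change above 0 and 2 below, with a median of 0.291. LAMA3 and LAMB3 are chains of the laminin that anchors epithelia such as epidermis to their basement membrane, while LAMB2 belongs to the laminins of kidney, muscle and vessel basement membranes. LAMA3 had 442.6, 315.4 and 346.5 normalized counts in EV and 662.2, 569.7 and 659 in shCHROME. Each shCHROME library was above the highest EV library. Its mean rose from 368.2 ± 66.3 in EV to 630.3 ± 52.5 in shCHROME, which on the log2 scale is 0.79 ± 0.116 (SE), 1.72-fold higher (limma adjusted p = 0.000237).

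LAMB3 was weaker, at 64.67, 78.61 and 49.78 normalized counts in EV and 100.9, 111.7 and 95.67 in shCHROME, again without overlap. Its mean rose from 64.35 ± 14.4 in EV to 102.7 ± 8.16 in shCHROME, which on the log2 scale is 0.69 ± 0.194 (SE), with a limma adjusted p of 0.0289. The call was lost with no filter on low counts (adjusted p = 0.0625) and without EV a (0.0614), EV c (0.139), shCHROME b (0.0984) or shCHROME c (0.0685).

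LAMB2 had 11665, 11671 and 11597 normalized counts in EV and 9340, 10542 and 9383 in shCHROME. The EV libraries were nearly equal, and shCHROME b lay closest to them. On average it fell from 11644 ± 41 in EV to 9755 ± 682 in shCHROME, which on the log2 scale is -0.26 ± 0.058 (SE), with a limma adjusted p of 0.00716. Without shCHROME c the adjusted p was 0.058, and the call held under the other 15 alternatives. The other abundant chains did not pass the test: LAMC1, the gamma chain of most laminins, differed by -0.02 on the log2 scale (95% interval -0.14 to 0.10), and LAMB1 0.01 (-0.11 to 0.14).

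The remaining tested alpha chains, LAMA5, LAMA1 and LAMA2, did not pass the test. LAMA5, the most abundant alpha chain and that of adult epithelial and vascular membranes, had 4379 ± 672 and 4764 ± 817 normalized counts (log2 fold change 0.12, -0.11 to 0.35). LAMA1, the chain of the early embryo, had 583.6 ± 46.8 in EV and 723.6 ± 149 in shCHROME (0.29, 0.04 to 0.54; limma adjusted p = 0.142), and was called without shCHROME a (0.00255). Per kilobase of exon, LAMA5 stood at 306 normalized counts in EV, LAMA1 at 36.8 and LAMA3 at 25.1, and in shCHROME at 333, 45.6 and 42.9. LAMB2 stood at 1696 and 1421 per kilobase, LAMB1 at 402 and 405, and LAMB3 at 13.7 and 21.9, so LAMB3 remained a small part of the beta chains in both groups.

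**Figure D3:**
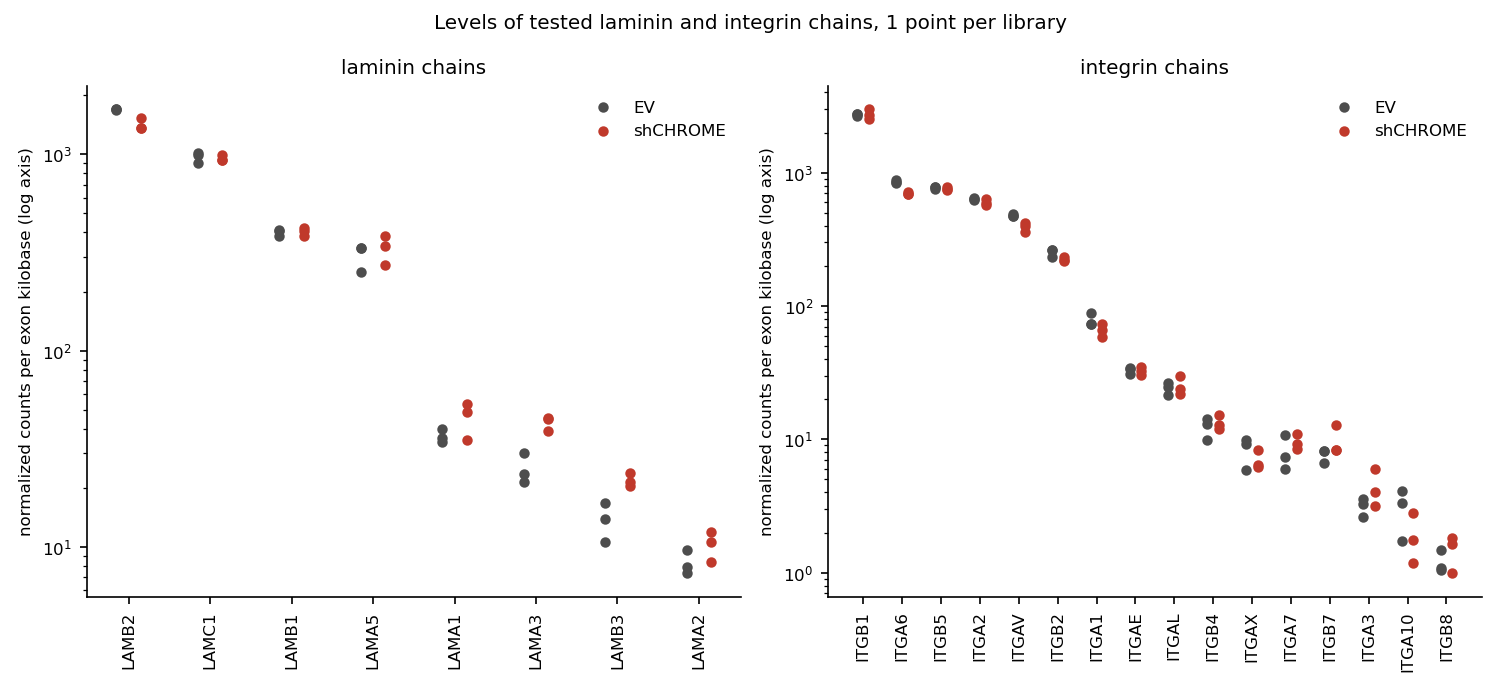
Normalized counts per exon kilobase, on a log axis, of tested laminin and integrin chains in each library (grey EV, red shCHROME). LAMB2 and LAMC1 are the highest laminin chains and ITGB1 the highest integrin chain in each library.

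The promoters of the 3 called laminin chains are shown because LAMA3 and LAMB3 rose and LAMB2 fell. Of the 3 windows of LAMB3, the one printed was picked because it alone holds a match to the letters searched. They are the 250 bases before a transcript start, 5′ to 3′ on the gene's strand, from RefSeq on GRCh38.p14, with capitals marking matches to the AP-1 letters TGANTCA, searched on both strands.
LAMA3: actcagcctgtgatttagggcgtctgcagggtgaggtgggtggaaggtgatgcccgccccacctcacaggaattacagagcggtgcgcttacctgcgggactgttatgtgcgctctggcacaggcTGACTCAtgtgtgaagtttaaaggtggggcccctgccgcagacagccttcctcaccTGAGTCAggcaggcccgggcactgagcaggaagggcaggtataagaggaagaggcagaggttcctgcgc
LAMB3: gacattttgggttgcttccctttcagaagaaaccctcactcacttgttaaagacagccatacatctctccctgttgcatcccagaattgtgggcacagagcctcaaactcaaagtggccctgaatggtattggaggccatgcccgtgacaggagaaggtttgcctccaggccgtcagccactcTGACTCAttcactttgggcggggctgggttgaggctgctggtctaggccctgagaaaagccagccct
LAMB2: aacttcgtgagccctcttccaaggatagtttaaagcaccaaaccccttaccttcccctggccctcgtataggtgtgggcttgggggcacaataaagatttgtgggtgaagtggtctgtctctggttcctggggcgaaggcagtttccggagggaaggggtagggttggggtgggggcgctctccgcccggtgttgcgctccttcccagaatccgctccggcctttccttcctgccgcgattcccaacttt
The LAMA3 window (chr18:23872770-23873019, plus strand) precedes a start that lies 183577 bases inside the gene and holds matches at 125 and 69 bases before it. The LAMB3 window (chr1:209651375-209651624, minus strand) precedes a start 1092 bases inside the gene and holds a match 67 bases before it. The other 2 LAMB3 windows, whose starts lie 41 and 137 bases from the 5′ end of the gene, hold none. The LAMB2 window (chr3:49133051-49133300, minus strand) holds none.

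The letters occur in the windows of 3 of the 64 members with an entry, LAMA3, LAMB3 and COL10A1, 4.69%, and of 8.06% of all 27305 genes with one. Of the 3, COL10A1 was not called and had a log2 fold change of -0.46. LOX, which rose, had an entry without the AP-1 letters. The GC box letters GGGCGG were in 60.9% of the members and 46.2% of all genes. The TATA letters TATAAA were in 14.1% and 13%, and CCAAT in 31.2% and 37%. A gene could count under several motifs, as LAMA3, LAMB3 and COL10A1 did. These motifs were chosen with the values known, and a match describes the letters only.

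Among integrin chains, 2 alpha chains fell and none rose, of 16 tested out of 26. ITGA6, the alpha chain that binds laminin with ITGB1 or ITGB4, had 5566, 5763 and 5433 normalized counts in EV and 4693, 4514 and 4535 in shCHROME. Within each group the libraries lay close together, and the groups did not overlap. Its mean fell from 5587 ± 166 in EV to 4581 ± 98.3 in shCHROME, which on the log2 scale is -0.29 ± 0.055 (SE), with a limma adjusted p of 0.00234. Its exons overlap those of 3 antisense genes, and reads on the shared bases cannot be told apart where counting used no strand. The other laminin-binding alpha chains were weakly expressed and did not pass the test, ITGA3 at 0.43 (-0.15 to 1.01) and ITGA7 at 0.28 (-0.22 to 0.78).

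ITGAV, the alpha chain of the receptors for vitronectin and fibronectin, had 3880, 3988 and 3865 normalized counts in EV and 3418, 2932 and 3277 in shCHROME. All shCHROME libraries were below the EV libraries, shCHROME b the furthest. On average it fell from 3911 ± 67.1 in EV to 3209 ± 250 in shCHROME, which on the log2 scale is -0.29 ± 0.064 (SE), with a limma adjusted p of 0.00653. ITGAV overlaps 1 antisense gene. It was the only RGD-binding alpha chain with enough reads for the test.

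The beta chains did not pass the test. ITGB1, which pairs with most of these alpha chains, had 16508, 16600 and 15928 normalized counts in EV and 17993, 15194 and 16386 in shCHROME. The shCHROME libraries spread around the EV libraries, and the log2 fold change was 0.01 (-0.12 to 0.14). ITGB5, a partner of ITGAV, differed by -0.03 (-0.14 to 0.09), and ITGB4, named here as the partner of ITGA6, by 0.10 (-0.29 to 0.50) at only 83.83 ± 15.1 normalized counts in EV. Per kilobase of exon in EV, ITGB1 stood at 2719 normalized counts, ITGA6 at 855, ITGB5 at 772, ITGA2 at 631 and ITGAV at 476.

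Of the collagen-binding alpha chains, ITGA2 had 4995 ± 85.4 in EV and 4766 ± 252 in shCHROME (log2 fold change -0.07, -0.19 to 0.05) and ITGA1 1452 ± 161 in EV and 1229 ± 141 in shCHROME (-0.24, -0.43 to -0.05; limma adjusted p = 0.101). ITGA1 was called without shCHROME a (0.0223). ITGAE and ITGAL, chains of leukocyte integrins, were weakly expressed and differed by -0.01 (-0.27 to 0.24) and 0.05 (-0.27 to 0.36). Of the integrin-named genes that are no chains, ITGB1BP1, which binds the tail of ITGB1, differed by -0.16 on the log2 scale (-0.32 to 0.01) and ITGB3BP, a centromere protein, 0.03 (-0.19 to 0.25). The 10 tested members not named by the rule had log2 fold changes between -0.63 (ITGA10) and 0.73 (COL24A1), and none passed the test.

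FN1 encodes fibronectin, which hepatocytes also secrete into plasma and which was by far the most abundant member. It had 216437, 197701 and 217879 normalized counts in EV and 167589, 189774 and 181186 in shCHROME. The groups did not overlap, but EV b and shCHROME b lay close together. The group mean fell from 210672 ± 11257 in EV to 179516 ± 11186 in shCHROME, which on the log2 scale is -0.23 ± 0.071 (SE), 1.17-fold lower (limma adjusted p = 0.0428). The call was lost under 8 of 16 alternatives, with limma adjusted p up to 0.171. With all libraries kept, it was lost with scaling by upper quartile (0.061) or library totals (0.0964). It was also lost with no filter on low counts (0.15) and with the replicate letter as a block (0.114). The remaining losses came from leaving out EV a (0.171), EV c (0.139), shCHROME a (0.0938) or shCHROME c (0.133).

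LOX encodes lysyl oxidase, the enzyme that starts the cross-linking of collagen and elastin. It had 1495, 1381 and 1671 normalized counts in EV and 1734, 1996 and 1821 in shCHROME, with EV c close to shCHROME a. Its mean rose from 1516 ± 146 in EV to 1851 ± 133 in shCHROME, which on the log2 scale is 0.29 ± 0.078 (SE), with a limma adjusted p of 0.022. It was lost without EV a (0.0707), EV b (0.108), shCHROME b (0.0881) or shCHROME c (0.0701). LOX overlaps SRFBP1 on the other strand, and without stated strand counting, reads on the shared bases cannot be told apart. The mean of SRFBP1 was also higher in shCHROME than in EV, the direction of LOX, and its part was not tested. SPARC, a collagen-binding matrix protein, differed by -0.05 (-0.24 to 0.15).

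The other 42 members were below the filter or listed at 0, and no test was made on them. Of these, 5 were listed at 0 in each library (COL15A1, COL19A1, COL9A1, ITGAD and ITGB6). IRS2 and APOC2, which liver cells express, are also listed at 0, so a low value in this table does not show that a gene is silent. Over the 6 libraries, 31 had 3 to 46 reads. Among collagens these were COL6A6 with 46 reads, COL17A1 with 43, COL5A1 with 40, COL4A1 with 35, COL4A4 with 19, COL4A6 with 15 and COL5A3 with 8. COL14A1 had 6, COL4A5 and COL25A1 had 5 each, and COL1A2, COL6A3, COL8A1, COL21A1 and COL23A1 had 4 each. COL3A1, COL11A1, COL12A1, COL20A1 and COL28A1 had 3 each.

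Of the integrins below the filter, ITGA2B had 42 reads, ITGA11 26, ITGA9 21, ITGB3 19, ITGAM 9, ITGA5 5 and ITGA4 3, and ITGBL1, which is no chain, had 26. Of the laminins, LAMC3 had 8 reads, LAMB4 4 and LAMA4 3. By library, COL4A1, the partner of COL4A2, had 1, 4 and 3 reads in EV and 12, 2 and 13 in shCHROME, so its groups overlapped. ITGB3, a partner of ITGAV, had 1, 1 and 2 in EV and 7, 4 and 4 in shCHROME, without overlap. Both were singled out after their values were seen. The remaining 6 had 1 or 2 reads.

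Around these chains, 105 of 136 genes in 5 lists were tested, with 8 higher, 9 lower and a median log2 fold change of -0.026. That is 16.2% called, 7.62% higher and 8.57% lower, beside 10.5%, 3.64% and 6.87% of all genes tested, and the difference was not tested. Of 20 tested genes that mature and cross-link collagen, 1 rose and 2 fell (median -0.120). PLOD2, a lysyl hydroxylase that prepares collagen for cross-links, fell from 6310 ± 362 to 4121 ± 339 normalized counts, a log2 fold change of -0.62 with a limma adjusted p of 7.38e-06. P4HA1, a catalytic chain of the enzyme that hydroxylates collagen prolines, fell by 0.29 on the log2 scale (limma adjusted p = 0.0109; 0.0761 without EV c). GLT25D2, a collagen galactosyltransferase, rose from 19.79 ± 1.45 to 48.07 ± 11.5 (log2 fold change 1.21, limma adjusted p = 0.00778; 0.0543 without shCHROME c).

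Of 24 tested genes of other matrix and basement membrane glycoproteins, 4 rose and 3 fell (median 0.046). LTBP1, which holds latent TGF-beta in the matrix, fell from 873.3 ± 17 to 511.2 ± 37.8 normalized counts (-0.77, limma adjusted p = 8.96e-06). SPP1, which encodes the RGD protein osteopontin, rose from 8266 ± 412 to 11683 ± 1814 (0.49, limma adjusted p = 0.000652). NPNT, which encodes the integrin ligand nephronectin, rose from 11.45 ± 7.47 to 52.52 ± 21.2 (2.19, limma adjusted p = 0.00123). FBN1, a microfibril protein, rose from 53.07 ± 6.45 to 96.7 ± 5.09 (0.86, limma adjusted p = 0.00587).

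Of 18 tested genes of matrix proteolysis, 2 rose and 1 fell (median -0.054). TIMP3, a matrix-bound inhibitor of metalloproteinases, rose by 0.45 on the log2 scale (limma adjusted p = 0.000193). ADAM9, a membrane protease, fell by 0.29 on the log2 scale (limma adjusted p = 0.0169), and its call was lost without EV a (0.0863), shCHROME b (0.0741) or shCHROME c (0.0735).

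Of 13 other tested matrix receptors, 1 fell, SDC1, a heparan sulfate proteoglycan of the epithelial surface, from 3857 to 3101 normalized counts (-0.31, limma adjusted p = 0.00224). The list's median was 0.005. Of 30 tested genes of focal adhesions and integrin signalling, 1 rose and 2 fell (median -0.012). CD9, a tetraspanin that associates with integrins, fell from 1378 to 904.3 (-0.61, limma adjusted p = 6.13e-05). TNS1, which links integrin tails to actin, fell from 314.8 to 203.8 (-0.62, limma adjusted p = 0.0107; 0.0781 without EV c and 0.0745 without shCHROME c). TLN2, a talin that activates integrins, rose from 383.9 to 494.6 (0.36, limma adjusted p = 0.0183), and its call was lost without EV a (0.0688), EV b (0.0565), shCHROME b (0.0628) or shCHROME c (0.0555).

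**Figure D4:**
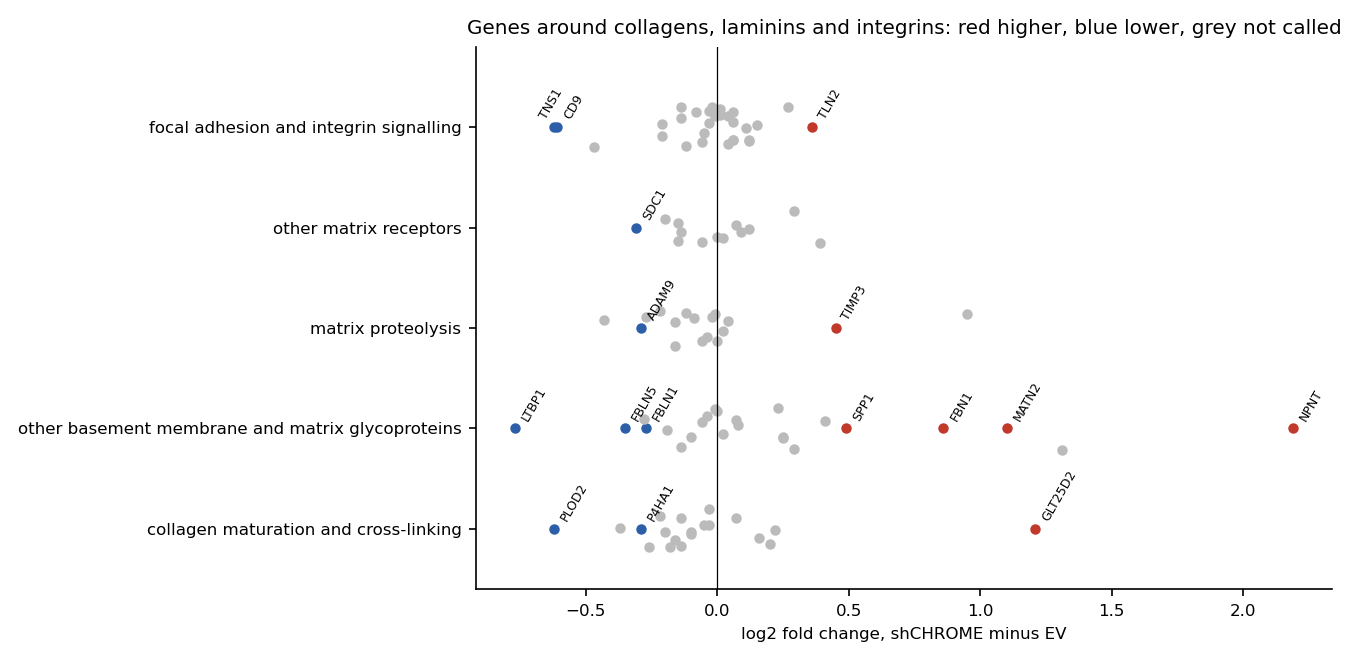
Log2 fold change (shCHROME minus EV) of 104 of the 105 tested genes around collagens, laminins and integrins, 1 row per list; red marks higher, blue lower and grey not called. NPNT lies furthest to the right at 2.19 and LTBP1 furthest to the left at -0.77, and most points lie near 0.

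The authors' deposited table, made with a model that no source used here gives, calls 3 of the members higher and 6 lower at an adjusted p under 0.05. In the authors' deposited table COL9A1 has a mean of 0.326 although it is at 0 in each of the 6 libraries, so other samples entered that mean. The table's p-values may therefore rest on them too, and those samples are not analysed here, so these p-values are not directly comparable with those above. In the authors' deposited table COL9A3 has an adjusted p of 1.16e-11, LAMA3 1.01e-05, LAMB3 0.0499 and FN1, not called there, 0.076.

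**Figure D5:**
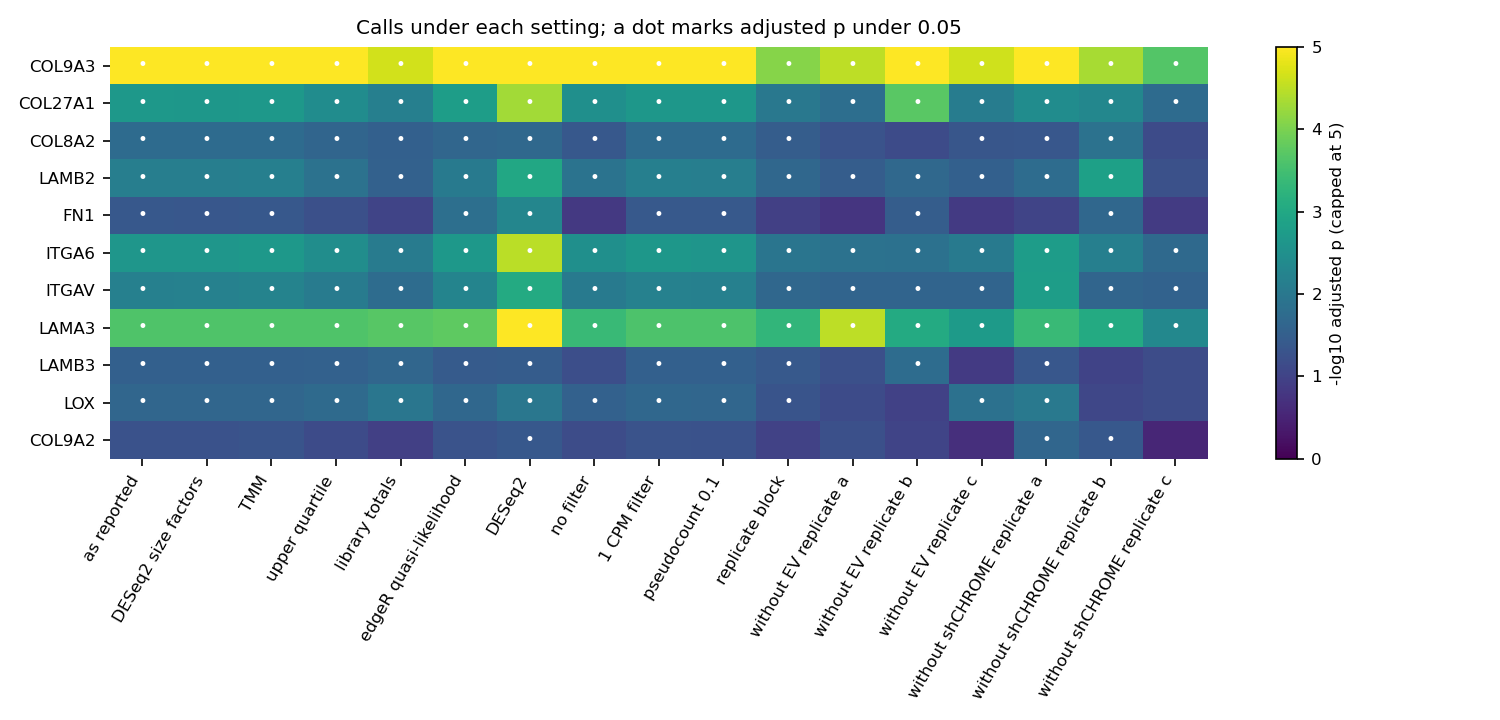
Heat map of -log10 adjusted p, capped at 5, for the 10 called genes and COL9A2 (rows) as reported and under the 16 alternatives (columns), with a dot where the adjusted p was under 0.05. COL9A3, COL27A1, ITGA6, ITGAV and LAMA3 have a dot in each column, and COL9A2 has 3 dots.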

How the data were processed

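RNA from 6 HepG2 libraries, 3 per group by sample title, was sequenced. Per the submitters' processing notes, the tools were STAR 2.5 and featureCounts 1.5.2, then DESeq2 with its version written as 3.4, and the build was hg19. Annotation and strand setting are not given in the sources used here.

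The authors deposited 1 table of normalized counts, a never-negative signal of reads divided by a size factor, and beside it their own log2 fold change and p-values, raw and adjusted, per gene. Of 24656 rows, 1288 repeats were dropped, and Ensembl identifiers gave back 28 symbols that had become dates. Whole reads were recovered from the step of 1 read, within 0.01 reads for 100.0% of values.

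Genes kept by filterByExpr (edgeR 4.0.16) on recovered reads were tested with limma 3.58.1 in R 4.3.3, with an intensity trend and group as the only term, on log2(value + 1), which understates changes of low genes. P-values were Benjamini-Hochberg adjusted over all genes tested, and folds are powers of the fitted difference. The script was tested on simulated data. Alternatives were scaling by DESeq2 size factors, TMM, upper quartile or library totals, edgeR quasi-likelihood and DESeq2 1.42.0 on the reads, no filter, a filter of 1 CPM in 3 libraries, each library left out in turn, the replicate letter as a block, and 0.1 as pseudocount. Levels between genes are per kilobase of exon from GENCODE 29, which has a length for 87 of the 89 members. Each length is the union of all annotated exons of the gene, which can exceed that of the transcripts present. Levels and shares between genes depend on this choice. Coordinates and promoters are on GRCh38, not the build of the counts.

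Named were all called members with each library's value, the 2 most expressed uncalled members of each family, members below the filter with at least 3 reads, and up to 4 called genes per list with the smallest adjusted p. Members and lists were chosen with earlier results of these data known. Some genes that this rule names are not reported here.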

Additional observations from a re-analysis of the deposited data

How the results depend on the processing

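Of the 10 called members, 5 were called under each of the 16 alternatives (COL9A3, COL27A1, ITGA6, ITGAV and LAMA3), and none changed direction, while 15 uncalled members changed sign under at least 1. Leaving out 1 library gave 1 to 4 members higher and 4 to 8 lower, against 3 and 7. It gave 1 higher without EV a, without shCHROME b and without shCHROME c, and 4 lower without shCHROME c. For the surrounding genes, leaving out 1 library gave 5 to 13 lower against 9, with 5 without EV c. These fits use fewer samples, and the cause was not tested further. With the replicate letter as a block, 3 members were higher and 6 lower, FN1 being lost (adjusted p = 0.114), and the surrounding lists gave 8 and 9. Over all genes the block gave 349 higher and 764 lower against 532 and 1003. Same-letter libraries showed no sign of pairing: their deviations correlated at -0.047, -0.091 and 0.044, beside -0.083 to 0.129 for libraries of unlike letters. With 3 libraries per group, these values cannot show that the letters carry no pairing. Over all genes, calls came to 297 higher and 635 lower without EV a, 323 and 649 without EV c, 245 and 599 without shCHROME c, and 936 and 702 with library totals, where the median of all genes was 0.058 against 0.009. Members below the filter had at most 46 reads over 6 libraries, too few for the test at this depth, and the reason for their low counts was not tested.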

Other observations

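The make-up of the chain classes, as a share of the normalized counts per exon kilobase summed over a class, was not part of any test. Among laminin alpha chains LAMA3 made up 7.27%, 6.8% and 5.92% in EV and 12.5%, 8.01% and 9.96% in shCHROME, and LAMA5 81.3% ± 1.77 and 77% ± 2.44 (SD, n = 3 per group). Among beta chains LAMB2 made up 80.3% ± 0.601 in EV and 76.9% ± 0.738 in shCHROME, LAMB1 19% ± 0.466 and 21.9% ± 0.774, and LAMB3 0.649% ± 0.139 and 1.19% ± 0.0434.

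Among integrin alpha chains ITGA6 made up 40.3% ± 0.18 in EV and 38% ± 0.945 in shCHROME, and ITGA2, the collagen-binding chain, 29.7% ± 0.363 and 32.7% ± 0.348. Among beta chains ITGB1 made up 72.2% ± 0.474 and 73.1% ± 1.72. Among collagens COL9A3 made up 30.7%, 28.6% and 28.9% in EV and 22.8%, 21.6% and 21.6% in shCHROME, and COL18A1 28.3% ± 0.606 and 33.2% ± 1.2. On average COL9A3 had the highest share of the collagens in EV and COL18A1 in shCHROME, while in EV b COL18A1 was slightly higher, at 28.9%. This order depends on the exon lengths used, and COL11A2, which has no length, was left out of the class. A share shows unequal change within a class, and a rising share does not show that the gene rose.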
